A study of Homo sapiens with 12 samples.

Results

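The glycolysis and hypoxia response set holds 38 genes, of which 24 act in glucose uptake, glycolysis and pyruvate handling and 14 in oxygen sensing or as targets of hypoxia-inducible factor. Members were found by gene name among the probe sets annotated to a single gene, and where a gene had several, the one brightest on average across the 12 arrays was read. This gave 36 of the 38 members among 11963 genes in all. No probe set was annotated to SLC16A3 or CA9 alone in the annotation used here, so these members were not analysed here.

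The arrays measured total RNA of the human acute myeloid leukaemia lines U937 and MV4-11, grown in RPMI with serum. The 4 groups of 3 arrays were U937 with CHD4 shRNA, U937 with scrambled shRNA, MV4-11 with CHD4 shRNA and MV4-11 with scrambled shRNA. Every group carried a GFP-expressing lentiviral hairpin vector, pRRL.H1.shRNA. The target is written CHD4, a chromatin remodelling ATPase, in the series description but CDH4 in the sample labels. The labels give no oxygen level, no time after transduction and no hairpin sequence, so the results describe cells under the stated culture conditions and not a hypoxic treatment. All values below are log2 values from RMA, a method that corrects background, gives all arrays 1 distribution of values and combines the probes of each probe set. A value can be compared between arrays for the same gene, but not between genes.

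Glycolysis splits glucose into pyruvate. Glucose transporters bring the sugar in, hexokinases trap it by phosphorylation, phosphofructokinase commits it to the pathway, and the later enzymes recover ATP. Lactate dehydrogenase turns pyruvate into lactate, whereas pyruvate dehydrogenase sends it into the mitochondrial tricarboxylic acid (TCA) cycle. Pyruvate dehydrogenase kinases switch that enzyme off. When oxygen is short, prolyl hydroxylases no longer mark the HIF1A subunit for destruction. HIF1A then pairs with ARNT and binds short DNA elements near many glycolytic genes and near genes of blood vessel growth, mitophagy and growth restraint. HIF1A is controlled mostly at the protein level, which arrays do not measure.

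The targeted gene was lower in both lines. CHD4 read 8.23, 8.13 and 8.45 in U937 with CHD4 shRNA, against 10.31, 10.38 and 10.71 with scrambled shRNA. In MV4-11 it read 8.79, 8.85 and 8.39 with CHD4 shRNA, against 10.65, 10.69 and 10.68 with scrambled shRNA. CHD4 shRNA arrays lay below scrambled arrays throughout, and CHD4 was 4.58-fold lower in U937 and 3.99-fold lower in MV4-11 (limma adjusted p = 8.78e-06 and 1.35e-05). Of 8 myeloid marker genes, 7 were measured, and LYZ averaged 13.24 to 13.73 and PTPRC 10.63 to 11.09 over the 4 groups, while MPO, a granule enzyme, was dim at 5.20 to 5.78. Of these 7 markers, 6 were above 0 in their log2 change in each line, and only ITGB2, a leukocyte integrin subunit, passed, in U937 (log2 change 0.34, limma adjusted p = 0.0489). The mean log2 value over the 7 markers was 9.56 to 9.63 in U937 with CHD4 shRNA, against 9.38 to 9.51 with scrambled shRNA, and 9.52 to 9.82 in MV4-11 with CHD4 shRNA, against 9.38 to 9.52 with scrambled shRNA. The part of this shift in the changes below was not tested. FLT3, which marks MV4-11, averaged 10.05 and 9.99 in MV4-11 with CHD4 and scrambled shRNA, against 6.79 and 6.64 in U937 with CHD4 and scrambled shRNA. Arrays of 1 group correlated at 0.987 to 0.997, and arrays stood apart in both lines. U937 CHD4 shRNA replicate 3 lay at -27.66 on the second principal component, against -11.50 and -16.93 for the other CHD4 shRNA arrays of U937. MV4-11 CHD4 shRNA replicate 2 lay at 37.99 on the first, against 24.17 and 16.06 for the other CHD4 shRNA arrays of MV4-11. MV4-11 CHD4 shRNA replicate 3 lay at 4.47 on the second, against -10.03 and -12.77 for replicates 1 and 2.

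CHD4 shRNA changed a minority of the set, and most members that changed fell. In U937, 1 of 36 members rose (PFKM) and 6 fell (HK2, GPI, PDK1, VEGFA, DDIT4 and MXI1). That is 19.4% of members, while 6.36% of all genes passed the same test (limma adjusted p under 0.05), 2.67% higher and 3.69% lower. In MV4-11, 3 members rose (PFKM, ENO2 and PDK3) and 7 fell (the same 6 and BNIP3L), 27.8% of members against 9.42% of all genes, 4.73% higher and 4.69% lower. The 7 members that passed in U937 also passed in MV4-11, as 1 rise and 6 decreases, and 3.99% of all genes passed in both lines in a shared direction, 1.71% higher and 2.28% lower. The members were chosen with earlier results of these data known, so these shares describe the set and do not test it. The comparisons of the 2 lines share no arrays, but 1 fit to all 12 arrays gave them the same spread per gene, so their calls are not independent. Without MV4-11 CHD4 shRNA replicate 1, VEGFA and DDIT4 no longer passed in U937 (limma adjusted p = 0.0533 and 0.0649), at unchanged log2 changes. The median log2 change over the 36 members was -0.01 in U937 and 0.01 in MV4-11, against 0.00 and -0.03 over all genes. Groups did not overlap for 4 members that were higher and 9 that were lower in U937, against 12.2% and 14.6% of all genes, and for 6 and 9 members in MV4-11, against 11.5% and 14.1% of all genes. In these bulk samples, fewer cells expressing a gene and less RNA of it per cell cannot be told apart.

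**Figure D1:**
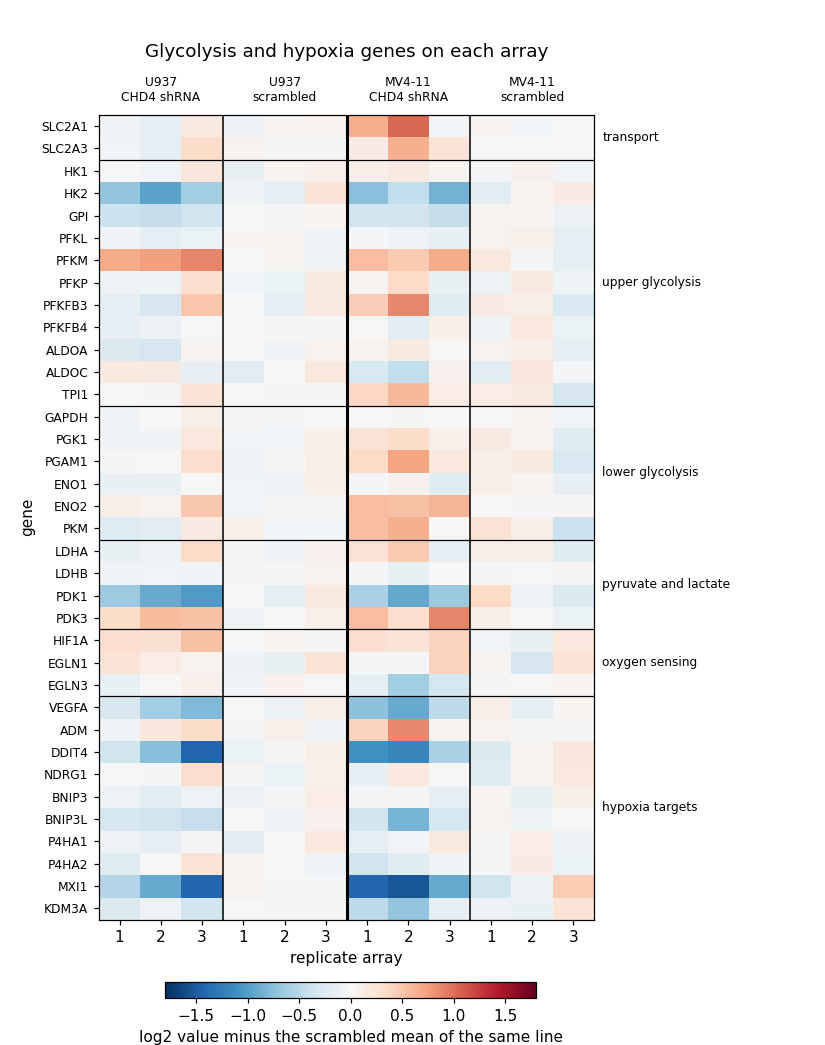
Log2 value of each of the 36 measured members on each of the 12 arrays minus that gene's mean over the scrambled arrays of the same line, with genes down the page by role and arrays across by group. HK2, GPI, PDK1, VEGFA, DDIT4 and MXI1 are below their scrambled mean on all 6 CHD4 shRNA arrays, PFKM is above it, and most glycolytic enzymes are near 0.

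The counts depended on single arrays and on pairing arrays by replicate number. In U937, 3 members passed when the left-out array was CHD4 shRNA replicate 2, scrambled replicate 1 or scrambled replicate 3, and 4 when it was CHD4 shRNA replicate 3 or scrambled replicate 2. In MV4-11, 6 passed when it was CHD4 shRNA replicate 1, scrambled replicate 2 or scrambled replicate 3, and 17 when it was CHD4 shRNA replicate 3. The share of all genes that passed in these fits is not given here, so these counts show only how far the calls depend on single arrays. With the replicate number as a block within each line, 16 members passed in MV4-11, 7 higher and 9 lower, as 19.7% of all genes then did. In MV4-11 the block added TPI1, PGAM1, PKM and HIF1A among those higher and EGLN3 and KDM3A among those lower. In U937 the same block added PDK3 and HIF1A among those higher and BNIP3L among those lower, with the share of all genes not given here.

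HIF binding elements have the core ACGTG or GCGTG. The letters ACGTG were searched on both strands in the 250 bases before each gene start of the RefSeq promoter table (GRCh38.p14). Of the 36 measured members, 32 had an entry there. The letters occurred in 21.7% of the 27305 genes of the table and in 19 of the 32 members. By call, they occurred in all 5 members that fell and had an entry, all 3 that rose, and 11 of 24 that passed in neither line. Several members have more than 1 start in the table, and counted by promoter the letters occurred in 6 of 9 for members that fell, 3 of 9 for those that rose and 13 of 40 for those that passed in neither line, against 18.5% of all 35116 promoters. With GCGTG counted too, the genes with a match were 26 of the 32 members and 18 of the 24 that passed in neither line, against 47.4% of all genes of the table. A match is a run of letters and not a site shown to be bound, and members of this set include textbook HIF targets. Stretches of 60 bases are shown for genes that fell, to place the matches beside their values below. All are plus strand, 5′ to 3′, with each match, or its reverse complement CACGT, in capitals. They come from HK2 (chr2:74834972-74835031, an internal start), GPI (chr19:34364803-34364862, an internal start), PDK1 (chr2:172556029-172556088, an internal start), DDIT4 (chr10:72273772-72273831, before the annotated start) and MXI1 (chr10:110210091-110210150, an internal start). In HK2 and elsewhere, CACGTG in capitals is 1 match on each strand.
HK2: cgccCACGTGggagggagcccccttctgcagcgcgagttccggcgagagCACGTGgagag
GPI: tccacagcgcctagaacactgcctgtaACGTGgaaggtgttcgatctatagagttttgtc
PDK1: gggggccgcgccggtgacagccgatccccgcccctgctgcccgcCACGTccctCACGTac
DDIT4: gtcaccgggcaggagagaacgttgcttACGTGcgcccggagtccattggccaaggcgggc
MXI1: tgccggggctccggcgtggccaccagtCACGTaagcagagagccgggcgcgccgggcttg

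The same letters stood before genes that rose in MV4-11 and genes that passed in neither line. PDK3 (chrX:24465198-24465257) and ENO2 (chr12:6914435-6914494) rose in MV4-11. PGK1 (chrX:78104028-78104087) and LDHA (chr11:18394456-18394515) passed in neither line and, like those of PDK3 and ENO2, their stretches lie before the annotated gene start. The GAPDH stretch (chr12:6535156-6535215) lies before an internal start of a gene that passed in neither line. The letters thus stood before members of both directions and before members that passed in neither line.
PDK3: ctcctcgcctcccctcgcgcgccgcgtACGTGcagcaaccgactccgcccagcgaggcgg
ENO2: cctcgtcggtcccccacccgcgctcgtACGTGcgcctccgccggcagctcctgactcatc
PGK1: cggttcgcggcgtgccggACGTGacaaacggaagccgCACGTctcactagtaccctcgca
LDHA: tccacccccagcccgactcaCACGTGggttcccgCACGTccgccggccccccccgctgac
GAPDH: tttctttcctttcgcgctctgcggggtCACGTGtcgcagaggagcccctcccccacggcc

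Glucose transporters did not pass in either line. SLC2A1, the GLUT1 transporter, read 7.43, 7.34 and 7.67 in U937 with CHD4 shRNA, against 7.39, 7.54 and 7.57 with scrambled shRNA, and the groups overlapped. In MV4-11 the values were 7.92, 8.32 and 7.24 with CHD4 shRNA, against 7.33, 7.24 and 7.28 with scrambled shRNA (log2 change 0.54, SE 0.20, limma adjusted p = 0.113). CHD4 shRNA replicates 1 and 2 lay above every scrambled array and replicate 3 did not, and without replicate 3 the log2 change was 0.84 (limma adjusted p = 0.00195). A dimmer SLC2A1 probe set changed by -0.09 in U937 and 0.11 in MV4-11 and did not pass (limma adjusted p over all probe sets = 0.767 and 0.606). SLC2A3, the GLUT3 transporter, had log2 changes of 0.04 in U937 and 0.34 in MV4-11, with 95% intervals of -0.26 to 0.35 and 0.04 to 0.64 (limma adjusted p = 0.922 and 0.153). Its other probe sets, a little dimmer, changed by 0.27 and 0.20 in U937 and by 0.11 and 0.15 in MV4-11. Neither passed in either line.

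Among the 11 members of upper glycolysis, which prepare and split the sugar, HK2 and GPI fell and PFKM rose in both lines. HK2, the hexokinase that traps glucose and a textbook HIF target, read 9.70, 9.45 and 9.79 in U937 with CHD4 shRNA, against 10.34, 10.25 and 10.65 with scrambled shRNA. The MV4-11 arrays read 9.79, 10.09 and 9.69 with CHD4 shRNA, against 10.35, 10.57 and 10.69 with scrambled shRNA. Every CHD4 shRNA array was below every scrambled array of its line. HK2 was 1.70-fold lower in U937 (log2 change -0.77, SE 0.14, limma adjusted p = 0.00828) and 1.60-fold lower in MV4-11 (-0.68, SE 0.14, limma adjusted p = 0.0122). In MV4-11 the adjusted p was 0.0585 without CHD4 shRNA replicate 1 and 0.0541 without scrambled replicate 3. A dimmer HK2 probe set changed by -0.33 in U937 and -0.12 in MV4-11 and did not pass (limma adjusted p over all probe sets = 0.439 and 0.786).

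GPI, the isomerase of the next step, read 11.44, 11.39 and 11.47 in U937 with CHD4 shRNA, against 11.81, 11.80 and 11.86 with scrambled shRNA. In MV4-11 it read 11.50, 11.51 and 11.41 with CHD4 shRNA, against 11.90, 11.88 and 11.74 with scrambled shRNA. No CHD4 shRNA array reached a scrambled one, and the decrease was small and alike in size, 1.31-fold in U937 (limma adjusted p = 0.0138) and 1.29-fold in MV4-11 (limma adjusted p = 0.0148). Leaving out U937 CHD4 shRNA replicate 2, U937 scrambled replicate 1 or U937 scrambled replicate 3 gave an adjusted p of 0.0613, 0.0502 and 0.0513 in U937. Leaving out MV4-11 CHD4 shRNA replicate 1, MV4-11 scrambled replicate 1 or MV4-11 scrambled replicate 2 gave 0.0532, 0.0535 and 0.0539 in MV4-11, with the log2 change at -0.34 or below.

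PFKM, the muscle-type phosphofructokinase, moved the other way. It read 6.88, 6.94 and 7.08 in U937 with CHD4 shRNA, against 6.21, 6.26 and 6.15 with scrambled shRNA. In MV4-11 the values were 6.71, 6.63 and 6.82 with CHD4 shRNA, against 6.35, 6.13 and 5.99 with scrambled shRNA. All CHD4 shRNA arrays were above all scrambled arrays, by 1.69-fold in U937 (log2 change 0.76, SE 0.10, limma adjusted p = 0.00139) and 1.48-fold in MV4-11 (0.56, SE 0.10, limma adjusted p = 0.00649). Its call held in both lines in each of the 12 fits that left out 1 array. The liver-type PFKL and platelet-type PFKP did not pass. Their log2 changes were -0.12 and 0.04 in U937 and -0.08 and 0.09 in MV4-11, with 95% intervals that lay within -0.31 to 0.41.

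The other 6 members of upper glycolysis passed in neither line without the block. HK1, ALDOA and TPI1, a hexokinase, an aldolase and the triose phosphate isomerase, had log2 changes of 0.05, -0.18 and 0.08 in U937 and 0.11, 0.07 and 0.37 in MV4-11. TPI1 read 12.48, 12.70 and 12.25 in MV4-11 with CHD4 shRNA, against 12.24, 12.28 and 11.81 with scrambled shRNA. Replicate 3 was the lowest array of both groups, which overlapped, and TPI1 passed with the replicate block (limma adjusted p = 0.0175, and 0.125 without it). Its adjusted p was 0.0399 on leaving out MV4-11 CHD4 shRNA replicate 3. PFKFB3, which makes the activator of phosphofructokinase, passed in neither line and read 7.99, 8.41 and 7.33 in MV4-11 with CHD4 shRNA, against 7.70, 7.67 and 7.28 with scrambled shRNA. PFKFB4 and ALDOC had log2 changes between -0.21 and 0.06 in the 2 lines.

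Lower glycolysis, the ATP-yielding end of the pathway, stayed close to its scrambled level in U937. None of its 6 members passed there, and the log2 changes ran from -0.09 (PKM) to 0.22 (ENO2). GAPDH, the dehydrogenase often used as a loading control, changed by 0.02 in U937 and 0.01 in MV4-11, with 95% intervals of -0.15 to 0.19 and -0.16 to 0.18. PGK1, the first ATP-yielding kinase, changed by 0.02 (-0.24 to 0.28) in U937 and 0.22 (-0.04 to 0.47) in MV4-11. ENO1, the main enolase, changed by -0.09 (-0.31 to 0.13) and -0.06 (-0.28 to 0.17). GAPDH, PGK1 and ENO1 have processed pseudogenes, and how much signal related transcripts gave on these probe sets was not tested.

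ENO2, the neuronal-type enolase, read 6.36, 6.33 and 6.42 in MV4-11 with CHD4 shRNA, against 5.80, 5.78 and 5.83 with scrambled shRNA. In U937 it read 5.93, 5.87 and 6.30 with CHD4 shRNA, against 5.77, 5.83 and 5.84 with scrambled shRNA. Both lines showed no overlap, but in U937 only replicate 3 was far above the scrambled arrays. ENO2 rose 1.48-fold in MV4-11 (log2 change 0.57, SE 0.11, limma adjusted p = 0.00667), while its log2 change of 0.22 in U937 did not pass (limma adjusted p = 0.290). The difference between the lines was 0.35 with a 95% interval of 0.02 to 0.67 and did not pass over all genes (limma adjusted p = 0.937). The MV4-11 call held in each of the 12 fits that left out 1 array.

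PGAM1 and PKM, phosphoglycerate mutase and pyruvate kinase, passed in MV4-11 with the replicate block but not without it. PGAM1 read 13.11, 13.46 and 12.94 in MV4-11 with CHD4 shRNA, against 12.85, 12.93 and 12.47 with scrambled shRNA. PKM read 8.93, 9.02 and 8.37 with CHD4 shRNA, against 8.65, 8.50 and 8.0 with scrambled shRNA. Within each number the CHD4 shRNA array was the higher one for both genes, and replicate 3 was the lowest of its group. The log2 changes were 0.42 for PGAM1 and 0.39 for PKM, with limma adjusted p of 0.0107 and 0.0335 with the block, against 0.108 and 0.228 without it. Leaving out MV4-11 CHD4 shRNA replicate 3, with no block, gave 0.0389 and 0.0349. In U937 the changes were 0.10 and -0.09 (limma adjusted p = 0.826 and 0.870).

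At the branch between lactate and the mitochondria, the lactate dehydrogenases passed in neither line and the 2 pyruvate dehydrogenase kinases moved in opposite directions in MV4-11. LDHA, which makes lactate, changed by 0.04 (95% interval -0.32 to 0.40) in U937 and 0.19 (-0.17 to 0.55) in MV4-11, and LDHB by -0.06 (-0.23 to 0.11) and -0.05 (-0.22 to 0.12). PDK1 read 9.38, 9.13 and 9.01 in U937 with CHD4 shRNA, against 10.03, 9.86 and 10.21 with scrambled shRNA. The MV4-11 arrays read 8.72, 8.38 and 8.63 with CHD4 shRNA, against 9.66, 9.21 and 9.04 with scrambled shRNA. All CHD4 shRNA arrays were the lower ones. PDK1 was 1.82-fold lower in U937 (log2 change -0.86, SE 0.16, limma adjusted p = 0.00828) and 1.65-fold lower in MV4-11 (-0.73, SE 0.16, limma adjusted p = 0.0156). The U937 call held in each of the 12 fits that left out 1 array. In MV4-11 the adjusted p was 0.0572 without CHD4 shRNA replicate 2, and without scrambled replicate 1 it lay just over the threshold, at a log2 change of -0.55.

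PDK3, a kinase of the same family, read 8.83, 8.58 and 9.15 in MV4-11 with CHD4 shRNA, against 8.38, 8.28 and 8.15 with scrambled shRNA. In U937 it read 8.61, 8.84 and 8.80 with CHD4 shRNA, against 8.18, 8.28 and 8.36 with scrambled shRNA. Groups were apart in both lines, and PDK3 rose 1.5-fold in MV4-11 (limma adjusted p = 0.0171). In U937 its log2 change of 0.48 (SE 0.13) narrowly missed the threshold (limma adjusted p = 0.0525) and passed with the replicate block (0.0406). On leaving out CHD4 shRNA replicate 1, scrambled replicate 2 or scrambled replicate 3, the MV4-11 adjusted p was 0.0605, 0.0506 and 0.0693. Its 2 dimmer probe sets were also higher in both lines, by 0.35 and 0.29 in U937 and 0.54 and 0.89 in MV4-11, of which the last passed over all probe sets (limma adjusted p = 0.0175).

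**Figure D2:**
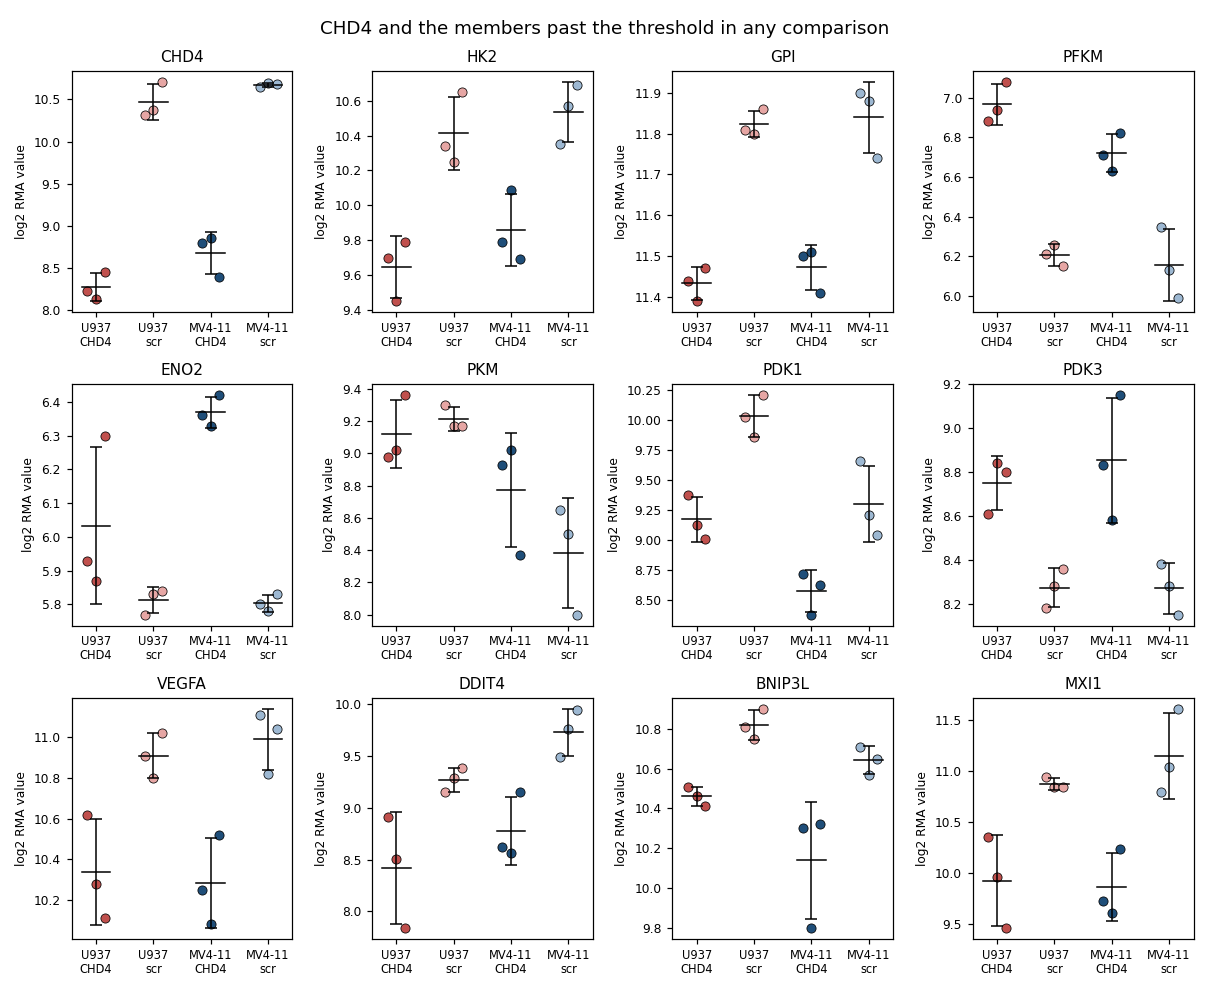
Log2 RMA value on each array of CHD4 and the members past the threshold in any comparison, for U937 and MV4-11 with CHD4 shRNA (CHD4) and scrambled shRNA (scr), where points are arrays in replicate order and bars are mean ± SD (n = 3) on axes that do not start at 0. CHD4 shRNA arrays of HK2, GPI, PDK1, VEGFA, DDIT4 and MXI1 are below, and those of PFKM and PDK3 above, every scrambled array of their line.

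HIF1A and the hydroxylases that sense oxygen, EGLN1 and EGLN3, did not pass in the fit of all arrays without the block. HIF1A, the regulated subunit, read 11.09, 11.06 and 11.32 in U937 with CHD4 shRNA, against 10.80, 10.82 and 10.75 with scrambled shRNA. In MV4-11 it read 10.89, 10.84 and 11.01 with CHD4 shRNA, against 10.56, 10.47 and 10.79 with scrambled shRNA. All CHD4 shRNA arrays were the higher ones. The log2 changes of 0.37 and 0.31 (SE 0.11 each) missed the threshold (limma adjusted p = 0.0612 in U937 and 0.0883 in MV4-11). With the replicate block within each line, HIF1A passed in both (limma adjusted p = 0.0290 in U937 and 0.0405 in MV4-11). EGLN1, the main HIF prolyl hydroxylase, changed by 0.14 and 0.12, with 95% intervals of -0.21 to 0.49 and -0.23 to 0.47. EGLN3, a hypoxia-induced hydroxylase, was dim, between 2.99 and 3.65 on all arrays. In MV4-11 the values were 3.44, 2.99 and 3.31 with CHD4 shRNA, against 3.60, 3.61 and 3.65 with scrambled shRNA (log2 change -0.37, limma adjusted p = 0.0571, 0.0308 with the block and 0.0494 on leaving out MV4-11 CHD4 shRNA replicate 3).

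Of the 10 measured hypoxia targets, none rose, 3 fell in U937 and 4 fell in MV4-11. That is 30% and 40% of the targets, against 3.69% and 4.69% of all genes that fell. The targets, like all members, were chosen with earlier results of these data known, so these shares do not test the set. VEGFA, the blood vessel growth factor, read 10.62, 10.28 and 10.11 in U937 with CHD4 shRNA, against 10.91, 10.80 and 11.02 with scrambled shRNA. The MV4-11 arrays read 10.25, 10.08 and 10.52 with CHD4 shRNA, against 11.11, 10.82 and 11.04 with scrambled shRNA. The groups did not overlap, and VEGFA was 1.49-fold lower in U937 (log2 change -0.57, SE 0.15, limma adjusted p = 0.0361) and 1.63-fold lower in MV4-11 (-0.71, SE 0.15, limma adjusted p = 0.0103). Its 4 probe sets were all lower, with log2 changes of -0.57 to -0.36 in U937, where 2 passed over all probe sets, and -0.71 to -0.44 in MV4-11, where all 4 did. The MV4-11 call held in each of the 12 fits that left out 1 array. The U937 call depended on single arrays. Its adjusted p was 0.126 and 0.139 on leaving out CHD4 shRNA replicate 2 or 3, 0.0668 to 0.124 on leaving out a scrambled array of U937, and 0.0533 on leaving out MV4-11 CHD4 shRNA replicate 1.

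MXI1, a repressor that competes with MYC for its partner MAX, had the largest decrease of the 36 members in MV4-11, and in U937 with all arrays. It read 10.35, 9.96 and 9.46 in U937 with CHD4 shRNA, against 10.94, 10.84 and 10.84 with scrambled shRNA. In MV4-11 it read 9.73, 9.61 and 10.24 with CHD4 shRNA, against 10.79, 11.04 and 11.61 with scrambled shRNA. The groups did not overlap, though the CHD4 shRNA arrays spread widely, with U937 replicate 3 the lowest and MV4-11 replicate 3 the highest. MXI1 was 1.93-fold lower in U937 (log2 change -0.95, SE 0.24, limma adjusted p = 0.0348) and 2.44-fold lower in MV4-11 (-1.29, SE 0.24, limma adjusted p = 0.00643). The MV4-11 call held in each of the 12 fits that left out 1 array. In U937 the adjusted p was 0.101 on leaving out CHD4 shRNA replicate 2, 0.132 on leaving out replicate 3, and 0.0891 to 0.113 on leaving out a scrambled array. Without replicate 3 the U937 log2 change of MXI1 was -0.72, a smaller decrease than those of HK2 and of PDK1, the latter at -0.78.

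DDIT4, a stress-induced inhibitor of mTORC1 also known as REDD1, read 8.91, 8.51 and 7.84 in U937 with CHD4 shRNA, against 9.15, 9.29 and 9.38 with scrambled shRNA. The MV4-11 arrays read 8.62, 8.56 and 9.15 with CHD4 shRNA, against 9.49, 9.76 and 9.94 with scrambled shRNA. The groups did not overlap, and U937 replicate 3 was far below the other CHD4 shRNA arrays of U937. DDIT4 was 1.81-fold lower in U937 (log2 change -0.85, SE 0.23, limma adjusted p = 0.0474) and 1.94-fold lower in MV4-11 (-0.95, SE 0.23, limma adjusted p = 0.0234). Without U937 CHD4 shRNA replicate 3 the U937 log2 change was -0.56 (adjusted p = 0.153), and the U937 call held in 3 of the 12 fits that left out 1 array, those without U937 CHD4 shRNA replicate 1, MV4-11 CHD4 shRNA replicate 2 or MV4-11 CHD4 shRNA replicate 3. In MV4-11 the adjusted p was 0.0980 and 0.0795 without CHD4 shRNA replicate 1 or replicate 2, and 0.0668 and 0.0903 without scrambled replicate 2 or replicate 3.

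The mitophagy receptors BNIP3 and BNIP3L, both textbook HIF targets, differed in what the test returned. BNIP3L read 10.30, 9.80 and 10.32 in MV4-11 with CHD4 shRNA, against 10.71, 10.57 and 10.65 with scrambled shRNA. In U937 it read 10.51, 10.46 and 10.41 with CHD4 shRNA, against 10.81, 10.75 and 10.90 with scrambled shRNA. All CHD4 shRNA arrays were the lower ones in both lines. BNIP3L was 1.42-fold lower in MV4-11 (log2 change -0.50, SE 0.13, limma adjusted p = 0.0256). Its log2 change of -0.36 in U937 did not pass (limma adjusted p = 0.121), but did with the replicate block (0.0493). CHD4 shRNA replicate 2 of MV4-11 was the low one, and without it the MV4-11 log2 change was -0.33 (adjusted p = 0.0631). Without scrambled replicate 1, 2 or 3 of MV4-11 the adjusted p was 0.0765, 0.0525 and 0.0747. BNIP3 changed by -0.13 in U937 and -0.05 in MV4-11, with 95% intervals of -0.34 to 0.08 and -0.26 to 0.16.

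The remaining 5 hypoxia targets did not pass in either line. KDM3A, a hypoxia-induced histone demethylase, read 9.39, 9.16 and 9.69 in MV4-11 with CHD4 shRNA, against 9.76, 9.73 and 10.11 with scrambled shRNA. The groups did not overlap, and its log2 change of -0.45 passed with the block (limma adjusted p = 0.00658, and 0.0582 without it) and on leaving out MV4-11 CHD4 shRNA replicate 3 (0.00977). In U937 KDM3A changed by -0.23 (limma adjusted p = 0.406). ADM, the vasodilator peptide adrenomedullin, read 5.66, 6.12 and 5.30 in MV4-11 with CHD4 shRNA, against 5.32, 5.22 and 5.22 with scrambled shRNA, and only CHD4 shRNA replicate 3 lay within the scrambled range. Its log2 change of 0.44 had a limma adjusted p of 0.124, and 0.0117 without replicate 3. NDRG1, P4HA1 and P4HA2, a stress-response gene and 2 collagen prolyl hydroxylase subunits, had log2 changes between -0.22 and 0.09.

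**Figure D3:**
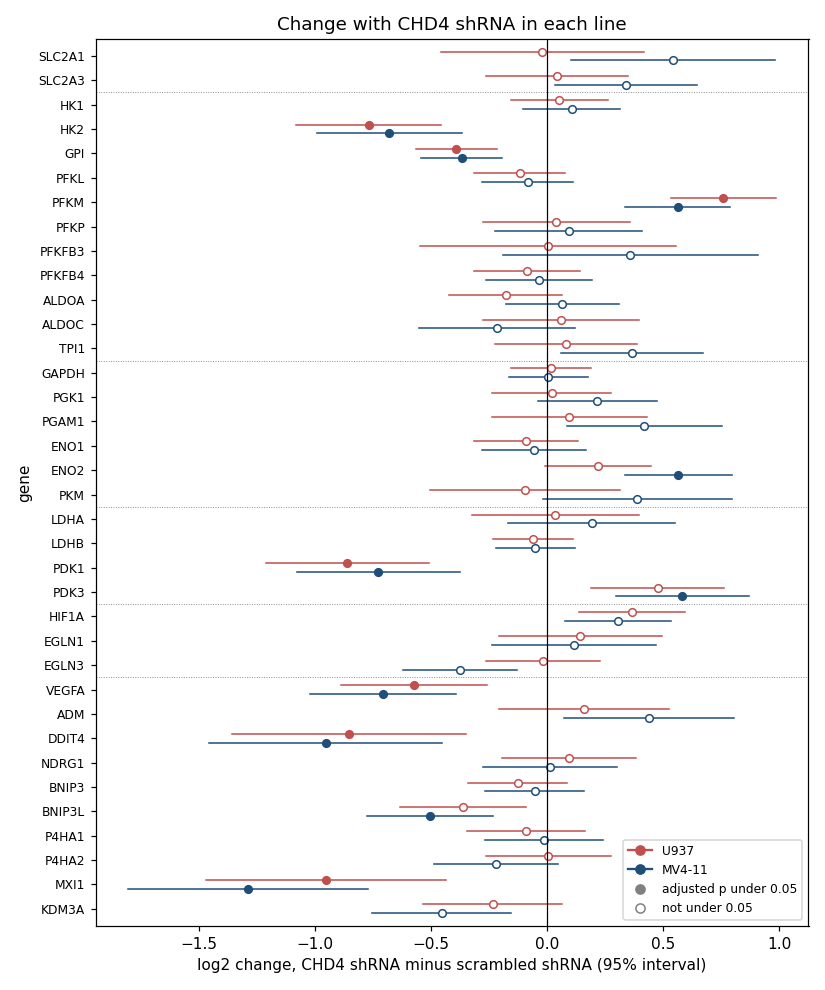
Log2 change with CHD4 shRNA and its 95% interval for the 36 members by role, in U937 and MV4-11, where filled points passed the limma test (adjusted p under 0.05). With all arrays MXI1 has the largest decrease, -0.95 in U937 and -1.29 in MV4-11, and PFKM the largest increase in U937, 0.76.

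Arrays of 1 group did not deviate alike across the members. In U937, CHD4 shRNA replicate 3 was the lowest of its group for MXI1, DDIT4, VEGFA, PDK1 and BNIP3L and the highest for PFKFB3, LDHA and PGAM1. Relative to the scrambled mean, 21 of 36 members were higher on that array, against 6 and 9 members on replicates 1 and 2. On scrambled replicate 3 of U937, 25 members were above the same mean, against 11 and 14 on scrambled replicates 1 and 2. In MV4-11, replicate 3 of the CHD4 shRNA arrays was the highest for MXI1, DDIT4 and VEGFA and the lowest for SLC2A1, PFKFB3, LDHA and PGAM1. Scrambled replicate 3 of MV4-11 was also the highest of its group for MXI1 and DDIT4 and the lowest for PFKFB3, LDHA and PGAM1. For VEGFA and SLC2A1 it lay between the other scrambled arrays. The labels name no batch, and the part of RNA quality or culture state in these deviations was not tested.

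The changes of the 2 lines could not be told apart by the test of their difference. No member passed for MV4-11 minus U937, as 0 of 11963 genes did by limma, and 2 members, ENO2 and EGLN3, had an unadjusted p under 0.05, as 4.56% of all genes did. With 3 arrays a group the intervals are wide. For HK2 the difference was 0.09 (95% interval -0.35 to 0.53), for PFKM -0.20 (-0.52 to 0.12) and for MXI1 -0.34 (-1.07 to 0.39). Of the 23 glycolysis members, 20 had a more positive change in MV4-11 than in U937, and 10 of the 13 hypoxia members a more negative one. Over all 11963 genes, 5734 had a more positive change in MV4-11 and 6205 a more negative one. Genes of 1 pathway on the same arrays are not independent, so these counts describe the 12 arrays.

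Between the scrambled controls, 2 of 36 members passed, PKM and PDK1, both lower in MV4-11, which is 5.56% of members against 5.48% of all genes in either direction and 2.51% lower. PKM read 8.65, 8.50 and 8.0 in MV4-11, against 9.30, 9.17 and 9.17 in U937. The lines did not overlap, and PKM was 1.78-fold lower in MV4-11 (log2 difference -0.83, SE 0.19, limma adjusted p = 0.0222), while its dimmer probe set differed by -0.46 (limma adjusted p over all probe sets = 0.174). PDK1 read 9.66, 9.21 and 9.04 in MV4-11, against 10.03, 9.86 and 10.21 in U937 (log2 difference -0.73, SE 0.16, limma adjusted p = 0.0199). In all, 3 members were higher and 9 lower in MV4-11 without overlap, against 11.9% and 14.4% of all genes. Neither gene passed without scrambled replicate 1 or 3 of U937 or without scrambled replicate 2 or 3 of MV4-11, and PDK1 alone passed without scrambled replicate 2 of U937.

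The 36 measured members had 60 probe sets, and 15 members had more than 1. The direction of VEGFA and PDK3 was shared by all their probe sets in both lines. BNIP3L had a second probe set at -0.40 in MV4-11 and -0.18 in U937, which passed in neither line (limma adjusted p over all probe sets = 0.1003 and 0.576).

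**Figure D4:**
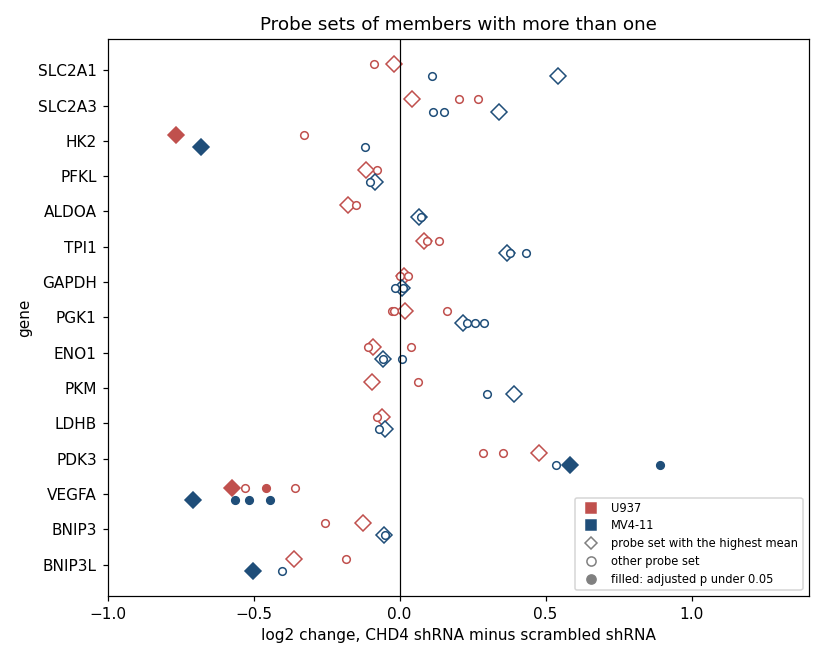
Log2 change with CHD4 shRNA of every probe set of the members that have more than one, in U937 and MV4-11, with the probe set used for the gene marked. All 4 VEGFA probe sets are below 0 in both lines and the dimmer HK2 probe set lies nearer 0 than the one used.

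Neighbouring pathways were read from further lists, also chosen with earlier results of these data known. Their shares beside all genes describe these lists and do not test them. Of 25 measured genes of pyruvate entry and the TCA cycle, none rose and 4 fell in U937 and 4 fell in MV4-11, which is 16% in each line, against 3.69% and 4.69% of all genes that fell. The median log2 change was -0.20 in U937 and -0.18 in MV4-11, against 0.00 and -0.03 over all genes. MDH1 is the cytosolic malate dehydrogenase, counted in this list although the TCA cycle is mitochondrial. It read 13.04, 12.90 and 12.64 in U937 with CHD4 shRNA, against 13.37, 13.36 and 13.27 with scrambled shRNA. In MV4-11 it read 12.60, 12.47 and 12.86 with CHD4 shRNA, against 13.26, 13.21 and 13.28 with scrambled shRNA. It fell in both lines without overlap (log2 change -0.47 and -0.61, limma adjusted p = 0.0347 and 0.0080). In U937, DLAT, a pyruvate dehydrogenase subunit, changed by -0.45 (limma adjusted p = 0.0335) and IDH3G, an isocitrate dehydrogenase subunit, by -0.37 (0.0329). In MV4-11, pyruvate carboxylase (PC) changed by -0.46 (limma adjusted p = 0.00538) and SUCLG2, a succinyl-CoA ligase subunit, by -0.71 (0.0197).

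Of 6 measured pentose phosphate genes, only PGD, a NADPH-yielding dehydrogenase, passed, in MV4-11. That is 16.7% of them in MV4-11, against 9.42% of all genes in either direction. PGD read 11.06, 11.12 and 10.93 in MV4-11 with CHD4 shRNA, against 10.50, 10.60 and 10.23 with scrambled shRNA (log2 change 0.59, limma adjusted p = 0.0162). It changed by 0.27 in U937 (0.302). Of 12 measured genes of the HIF machinery, only EPAS1, which encodes HIF2A, passed, in MV4-11. That is 8.33% of them in MV4-11, no more than the 9.42% of all genes that passed there in either direction. EPAS1 read 8.86, 9.58 and 8.34 in MV4-11 with CHD4 shRNA, against 7.89, 7.84 and 8.16 with scrambled shRNA (log2 change 0.96, SE 0.25, limma adjusted p = 0.0290). Its CHD4 shRNA arrays spread over more than 1 log2 unit, with replicate 2 the highest.

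Of another 33 measured genes known as HIF targets, 2 rose and 3 fell in U937 and 4 rose and 3 fell in MV4-11. That is 15.2% and 21.2% of them, against 6.36% and 9.42% of all genes in either direction. This list too was chosen with earlier results of these data known, so these shares do not test it. CXCR4, a chemokine receptor, read 11.78, 11.52 and 11.81 in U937 with CHD4 shRNA, against 12.70, 12.61 and 12.62 with scrambled shRNA, and 11.30, 11.52 and 11.57 in MV4-11 with CHD4 shRNA, against 12.35, 12.47 and 12.64 with scrambled shRNA. It was lower without overlap, 1.92-fold in U937 and 2.03-fold in MV4-11 (limma adjusted p = 0.000607 and 0.000281). FAM162A, a mitochondrial protein, fell by 0.87 and 0.64 on the log2 scale (limma adjusted p = 0.00157 and 0.00694), and BHLHE41, a clock repressor, by 1.07 and 1.06 (0.0305 and 0.0251). Against these, GBE1, the glycogen branching enzyme, rose by 0.48 in U937 and 0.39 in MV4-11 (limma adjusted p = 0.00465 and 0.0104), and the growth factor TGFA by 0.58 and 1.13 (0.0475 and 0.00165). WSB1, a ubiquitin ligase adaptor, rose by 0.52 in MV4-11 (0.0228) and changed by 0.15 in U937 (0.586). Fits that left out 1 array were read for the members only, so the calls of genes from the further lists carry no such check.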

How the data were processed

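Total RNA of 12 samples was measured on Affymetrix arrays as biotinylated cRNA, per the labels' protocols. The authors deposited log2 values with 2 decimals, and the submitters' processing notes name RMA. Its version, and whether the arrays were processed as 1 set, is not given in the sources. That the scale is log2 follows from the range of the values, 2.54 to 15.11, and the array medians were 6.97 to 7.02. RMA's quantile step would hide a change shared by most genes, and background signal shrinks folds of dim genes. Detection calls were not used, and precision is limited by the number of arrays.

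Of 22277 probe sets, 62 controls were left out. The platform annotation gave 1 gene symbol for 19064, several for 1043 and no entry for 2108. The Entrez identifiers of 19052 were found in the RefSeq gene table. One model with 4 groups was fitted to all genes with limma 3.58.1 in R 4.3.3 (lmFit, then eBayes, with 8 residual and 4.66 prior degrees of freedom). Benjamini-Hochberg adjustment ran over 11963 genes, and an adjusted p under 0.05 passed. Adjusted p-values come from this limma fit or a named alternative. The fit was tested on simulated data. Exact permutation tests of 3 arrays against 3 cannot go below p = 0.1 and were not used. The triplicates were biological per the series description, and what a replicate number stands for is not stated.

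The members and lists were chosen with earlier results of these data known. From the further lists, up to 3 genes with the lowest p in each direction among those past the threshold in each line are named. Same-numbered arrays of MV4-11 deviated together from their group means across genes (correlations 0.46, 0.48 and 0.49). The pairing rests on the titles and this check. Values with the replicate block within each line stand beside those without it where a call changes. No filter on dim genes was applied, and EGLN3, ADM and P4HA2 are among the dimmest 25% of genes. Alternatives covered dim genes, scaling, the variance model, the probe set per gene, the samples in the fit, blocks, thresholds and leaving out each array.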

Additional observations from a re-analysis of the deposited data

How the results depend on the processing

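Of the members past the threshold, HK2, PDK1 and PFKM in U937 and ENO2, MXI1 and PFKM in MV4-11 kept direction and call under all 25 alternatives, and no member past the threshold changed direction under any. VEGFA in MV4-11 missed only an adjusted p under 0.01. DDIT4 in U937 held in 9 of 25, with adjusted p from 0.0135 to 0.153. HK2 in MV4-11 missed the threshold with the mean of its probe sets (adjusted p = 0.0711). Leaving out 1 array gave 3 to 9 members in U937, 6 to 17 in MV4-11, 0 for the difference of the changes and 0 to 3 between the scrambled controls. These and the following counts of members are given without the share of all genes, except where named. At an adjusted p under 0.01, 3 members passed in U937, 3 in MV4-11 and 0 between the scrambled controls. A fit of only the groups compared gave 6 in MV4-11 and 4 between the scrambled controls, with fewer arrays to estimate the spread, and averaging the probe sets of each gene gave 1 between the scrambled controls. The replicate block within each line gave 16 in MV4-11. In U937, where same-numbered arrays correlated at 0.00, 0.35 and 0.34, the numbers were not taken to pair the arrays, and the block gave 10, adding PDK3, HIF1A and BNIP3L. A replicate block shared by both lines gave 6 in U937, where DDIT4 (adjusted p = 0.0840) and MXI1 (0.0580) no longer passed and HIF1A did (0.0484). Without both U937 CHD4 shRNA replicate 3 and MV4-11 CHD4 shRNA replicate 2, an alternative chosen after seeing the data, 4 members passed in U937, 9 in MV4-11 and 3 between the scrambled controls. Over all genes, 513 passed in MV4-11 with only the groups compared and 2351 with the block, against 1127. The cause of these shifts was not tested, other than the fewer samples or the stricter threshold where the alternative sets them. With 3 arrays a group, small changes can be missed.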

Other observations

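The average of both lines' changes, a comparison added after seeing the data, uses all 12 arrays. In it 4 members rose and 8 fell, 33.3% of the 36 members, while 18.8% of all genes passed by limma. The members beyond those past the threshold in a single line were HIF1A, with an average log2 change of 0.34 (SE 0.07, limma adjusted p = 0.00720), and KDM3A, at -0.34 (SE 0.10, limma adjusted p = 0.0266). In it 5 of the 10 hypoxia targets fell and none rose, and 11 of 25 genes of pyruvate entry and the TCA cycle fell and none rose, while 10% of all genes fell. Of the 7 myeloid markers, 3 rose and none fell in it, while 1043 of all 11963 genes rose and 1201 fell.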
